A study of Mus musculus with 8 samples.

Results

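The genes described here encode axonemal dyneins, radial spoke proteins and tektins. They were chosen by name: every probe that is not a control and whose gene name in the scanner files starts with Dnah, Dnaic, Dnal (but not Dnalc), Rsph or Tekt. The rule took 52 probes of 29 genes, out of 55681 probes and 34758 genes on the array. Tests needed a signal well above background on both replicates of some group, which 43 probes of 27 genes had. Dnah5 and the gene listed as Dnahc3 had no such probe (Dnah5 passed on 1 array only, with levels of −5.12 to −7.58). Many of the files' names are older symbols (Dnahc8 for Dnah8), and current symbols are used here. Probe positions are those of the files, on build mm9.

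The study measured gene expression in testes of C57BL/6 mice on 8 one-colour Agilent arrays, 2 in each of 4 groups. Wild type mice (Ip6k1+/+) and knockout mice (Ip6k1-/-) were littermates from Ip6k1+/- parents, killed at 17 dpp (days postpartum), before weaning, or at 26 dpp, as weaned juveniles. The labels name no promoter or Cre that would limit the knockout to a cell type, and the deleted part of Ip6k1 is not given in the sources used here. The labels call the 2 samples of a group biological replicates and do not say whether a sample pools animals. P-values therefore measure the spread between these samples. All values below are log2 signals relative to the 75th percentile of the array (levels), or differences between such levels. The level of one gene is not set against that of another, because probes differ in brightness. Where 4 values of an age are listed, the wild type replicates 1 and 2 come first and the knockout replicates 1 and 2 follow.

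The axoneme is the microtubule core of a motile cilium or sperm tail. Outer and inner dynein arms on its doublet microtubules are motors built from heavy chains, with intermediate and light chains that hold and regulate them. Radial spokes link the doublets to the central pair and carry signals to the arms, and tektins are filaments bound inside the doublet wall. In the testis these parts are made by germ cells for the sperm tail, and the first wave of spermatogenesis in the mouse passes from spermatocytes to spermatids between the ages compared here.

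The arrays were even in these measures, apart from 1 sample that differed in its correlations. Between 58.9% and 64.7% of probes were well above background, no spot was saturated, and replicates correlated across probes at 0.980 to 0.989 in 3 of the groups. In knockout at 26 dpp the replicates correlated at 0.863. There, replicate 1 correlated with the wild type arrays of its age at 0.992 and 0.989, and replicate 2 at 0.874 and 0.839, while replicate 2 correlated with the 17 dpp arrays at 0.918 to 0.948. The 75th percentile of the signal before scaling was 484.6 on that array, 470.2 to 520.4 at 17 dpp and 637.1 to 691.8 on the other 26 dpp arrays. Whether the array or the tissue differed was not tested. Results that rest on knockout replicate 2 at 26 dpp are therefore given with and without it. The single Ip6k1 probe read 2.19 and 2.30 in wild type against 1.36 and 1.49 in knockout at 17 dpp, and 2.79 and 2.77 against 1.41 and 1.30 at 26 dpp. Knockout lay below wild type at both ages, by 0.82 and 1.43 on the log2 scale, and neither difference passed the test (limma adjusted p = 1 and 0.504). All arrays were on 1 slide with 1 scan time, and the 17 dpp samples filled slide row 1 and the 26 dpp samples row 2, so row and age cannot be told apart.

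Most of these genes were far higher at 26 than at 17 dpp in wild type testes. With all 8 arrays in 1 limma model and an adjusted p under 0.05 as the threshold, 22 of 27 rose, where 18.9% of all 26449 genes tested did so. A single member, Dnah11, fell, where 26.2% of all genes did. Among genes above background at both ages the differences ran from −1.84 (Dnah11) to 8.12 (Rsph6a). Tekt3 and Tekt5, at background in wild type at 17 dpp, have a lower bound only. The median difference of the members was 4.42, also with these at their bound, and that of all genes was −0.46 (−0.28 to −0.54 over 5 scalings of the arrays). No member changed direction under those scalings in this comparison, but the fold moved by over 1.5 times in 9 of 27. All 9 were smaller with normexp background correction, which adds an offset of 50 to the signal. At the farthest, with or without quantile normalization after it, Rsph6a rose by 6.10, Dnah6 by 6.06, Dnaic2 by 5.05, Tekt3 by 3.82, Tekt5 by 3.81, Rsph10b2 by 1.98 and Dnah1 by 1.62, each still past the threshold. Dnah11 then stood at −0.73 (adjusted p = 0.0484) and Dnah9 at −0.71, which did not pass. In a bulk sample, fewer cells of a type and less RNA per cell cannot be told apart, and markers of the germ cells moved alongside: 14 of 15 pachytene and diplotene genes, 15 of 16 round spermatid genes and 15 of 16 elongating spermatid genes rose, and 9 of 15 spermatogonial genes fell. Markers of some somatic cells fell as well: 9 of 14 for Sertoli cells and 6 of 8 each for peritubular myoid and endothelial cells. Of 12 epididymis genes, 7 fell and 1 rose. Fewer fell in other lists: 2 of 9 for Leydig cells, where 1 rose, 1 of 7 for adipocytes and 0 of 11 for macrophages, where 2 rose. The part of these cells in the result was not tested. Without any one of the 4 wild type arrays, 0 of the 27 passed this test, with adjusted p-values of the members from 0.0507 upward, although 22 to 24 of them kept an unadjusted p under 0.05 and their median difference stayed between 4.21 and 4.70. Over all genes, 0 to 185 passed in those fits.

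**Figure D1:**
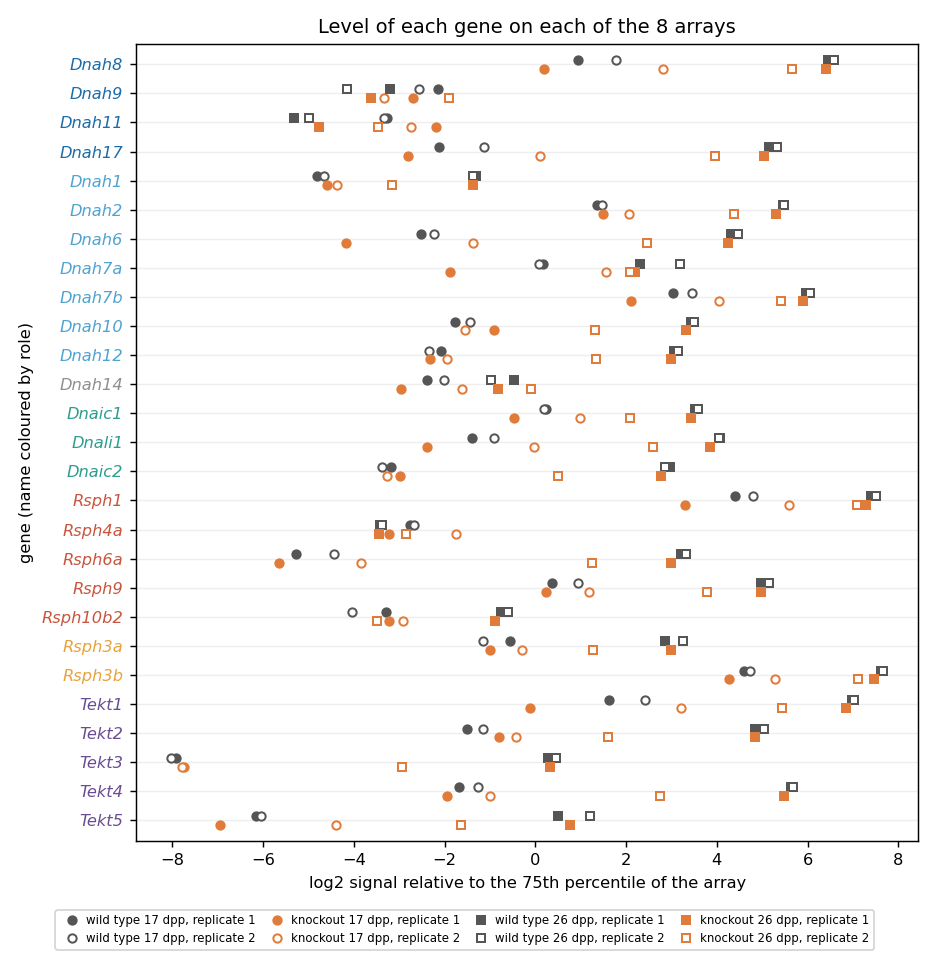
Level of each of the 27 tested genes (vertical axis, names coloured by role) on each of the 8 arrays, as log2 signal relative to the 75th percentile of the array. Circles are 17 dpp, squares 26 dpp, grey wild type, orange knockout, and replicate 2 is open. The squares lie far to the right of the circles for most genes, as for Rsph6a with −5.27 and −4.43 against 3.20 and 3.33 in wild type, and the open orange square (knockout replicate 2 at 26 dpp) usually lies left of the other squares.

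Among the outer arm heavy chains, the pair used in sperm rose and the chains known from airway cilia did not. Dnah8 (probe at chr17:31012150-31012209), a sperm counterpart of the airway chain Dnah5, read 0.93, 1.78, 0.19 and 2.81 at 17 dpp and 6.44, 6.59, 6.40 and 5.66 at 26 dpp. It was 35.8-fold higher in wild type at 26 dpp (difference 5.16, SE 0.847, adjusted p = 0.0109), and every 26 dpp array lay above every 17 dpp array. Dnah17 (probe at chr11:117884449-117884508), a sperm counterpart of the airway chain Dnah9, read −2.13, −1.14, −2.81 and 0.10 at 17 dpp, then 5.14, 5.33, 5.03 and 3.95. Its rise in wild type was 117-fold (6.87, SE 0.958, adjusted p = 0.00853), again with no overlap between ages.

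The airway outer arm chains went the other way or did not pass. Dnah11 (probe at chr12:119116456-119116515) read −3.27, −3.33, −2.19 and −2.74 at 17 dpp and −5.31, −4.98, −4.77 and −3.47 at 26 dpp. It fell by 1.84 in wild type (SE 0.467, adjusted p = 0.0276). Dnah9 read −2.15, −2.57, −2.69 and −3.34 at 17 dpp and −3.21, −4.15, −3.62 and −1.91 at 26 dpp. Its difference in wild type was −1.32 (SE 0.640, adjusted p = 0.128). The ages overlap once knockout is included, since knockout replicate 2 at 26 dpp was the highest of its 8 values. These chains are also made by multiciliated epithelium, of which 4 of 10 tested marker genes were higher and 2 lower at 26 dpp in wild type. Summed on the linear scale, that list reached 25.7 and 28.6 in wild type testes of 17 dpp, and 83.5 and 96.9 at 26 dpp, and 4 of its genes were at background on every array. The sum leans on 1 gene, Deup1, which read −1.06 and −0.45 at 17 dpp and 5.63 and 6.04 at 26 dpp in wild type. Over the list, 5 differences lay above 0 and 5 below, with a median of 0.60.

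The inner arm heavy chains rose together, 6 of 7 in wild type. Dnah6 (probe at chr6:72967603-72967662), a single-headed inner arm chain, read −2.51, −2.23, −4.17 and −1.38 at 17 dpp and 4.32, 4.46, 4.25 and 2.46 at 26 dpp. The wild type difference of 6.76 (SE 0.979, adjusted p = 0.00888) is a 109-fold rise. Dnah12, another single-headed chain, was even across the 17 dpp arrays at −2.07, −2.35, −2.32 and −1.95, and read 3.06, 3.15, 2.99 and 1.34 at 26 dpp. It was 39.7-fold higher in wild type (5.31, SE 0.534, adjusted p = 0.00577). Dnah10, a chain of the double-headed inner arm, read −1.77, −1.45, −0.92 and −1.54 at 17 dpp and 3.44, 3.50, 3.32 and 1.31 at 26 dpp. Its rise of 5.08 (SE 0.645, adjusted p = 0.00755) is 33.9-fold. In all 3 genes the ages were fully separated, and the lowest 26 dpp value was knockout replicate 2.

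Of the other inner arm chains, Dnah2, the partner of Dnah10 in the double-headed arm, rose by 4.04 in wild type (SE 0.378), with the smallest adjusted p of all members, 0.00544. Dnah1 rose by 3.40 and Dnah7b by 2.77, the latter on a probe also listed for Dnah7a. Dnah7a did not pass: it read 0.17, 0.09, −1.88 and 1.56 at 17 dpp and 2.30, 3.19, 2.20 and 2.08 at 26 dpp, for a wild type difference of 2.62 (SE 1.04, adjusted p = 0.0815). The spread there lay in the knockout at 17 dpp, whose arrays were the lowest and the highest of their age. Dnah14, a heavy chain whose arm is not assigned here, read −2.38, −2.02, −2.96 and −1.62 at 17 dpp and −0.46, −0.97, −0.82 and −0.09 at 26 dpp. Every array of the older age lay above every array of the younger, and the wild type difference of 1.48 (SE 0.516) missed the threshold at an adjusted p of 0.0576. A second Dnah14 probe rose by 2.25 and passed (adjusted p = 0.0117).

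All 3 intermediate and light chain genes rose in wild type. Dnaic2 (probe at chr11:114618891-114618950), an intermediate chain of the outer arm, read −3.19, −3.38, −2.99 and −3.26 at 17 dpp and 2.97, 2.86, 2.78 and 0.49 at 26 dpp, a 73.2-fold rise (6.19, SE 0.696, adjusted p = 0.00640). Dnali1, a light chain of the inner arms, read −1.40, −0.92, −2.38 and −0.03 at 17 dpp and 4.07, 4.04, 3.85 and 2.60 at 26 dpp, a 37.1-fold rise (5.21, SE 0.806, adjusted p = 0.00986). Dnaic1, the other intermediate chain of the outer arm, was 10.1-fold higher. The ages did not overlap in any of the 3.

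In the radial spokes the head and stalk genes rose with one exception. Rsph6a (probe at chr7:19659424-19659483), the testis paralogue of the spoke head protein Rsph4a, read −5.27, −4.43, −5.65 and −3.84 at 17 dpp and 3.20, 3.33, 3.0 and 1.25 at 26 dpp. Its difference in wild type, 8.12 (SE 0.791, adjusted p = 0.00569), was 277-fold. Rsph4a itself, needed for spokes of airway cilia, read −2.76, −2.68, −3.23 and −1.74 at 17 dpp and −3.42, −3.39, −3.45 and −2.86 at 26 dpp. That difference of −0.68 (SE 0.505, adjusted p = 0.288) did not pass, and it lies near the median of all genes, −0.46. Of the other head genes, Rsph9 rose by 4.42, Rsph10b2 by 2.99 and Rsph1 by 2.86. The stalk genes Rsph3a and Rsph3b rose by 3.91 and 2.96.

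The 5 tektins all rose, with a median of 6.95, or 6.27 with Tekt3 and Tekt5 at their bounds; the next role, intermediate and light chains, had 5.21. Tekt3 (probe at chr11:62883986-62884045) was not well above background on any 17 dpp array (levels of −7.75 to −8.02) and read 0.29, 0.46, 0.32 and −2.93 at 26 dpp. It was at least 67.2-fold higher in wild type (adjusted p = 0.00658), where "at least" sets the 26 dpp mean of 0.37 against the lowest signal above background on the 17 dpp arrays. Both this bound and that of Tekt5 hold for the main scaling and lie above the folds of 14.2 and 14 that normexp gave for these genes. Tekt5 (probe at chr16:10361392-10361451) was at background in wild type at 17 dpp, at −6.15 and −6.04, with −6.94 and −4.40 in knockout, then 0.50, 1.20, 0.76 and −1.63 at 26 dpp. It was at least 93.8-fold higher in wild type (adjusted p = 0.00937).

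The remaining tektins were measurable at both ages. Tekt4 (probe at chr17:25613464-25613523) read −1.68, −1.27, −1.94 and −1.01 at 17 dpp and 5.63, 5.69, 5.49 and 2.74 at 26 dpp, a 141-fold rise in wild type (7.14, SE 0.868, adjusted p = 0.00692). Tekt2 (probe at chr4:125999366-125999425) read −1.50, −1.16, −0.79 and −0.43 at 17 dpp and 4.85, 5.04, 4.84 and 1.60 at 26 dpp, a 77.2-fold rise (6.27, SE 0.966, adjusted p = 0.00978). Both showed 3 tight 26 dpp values and a 4th, knockout replicate 2, about midway to the younger age. Tekt1 was already well measured at 17 dpp, at 1.63, 2.42, −0.11 and 3.22, and rose by 4.98 in wild type (SE 1.08).

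Several genes had more than 1 probe, and some probes cannot separate close copies. The files list 3 of 7 probes of Dnah7a and Dnah7b for both genes, among them the probe that represents Dnah7b. They list 2 of 4 probes of Rsph3a and Rsph3b for both, including the probe that represents each gene. The values of these pairs are therefore uncertain as to which copy they measure. For Dnah7 some probes are listed for 1 copy, and 3 sequences show the distinction (60 bases each, mm9 positions, no exon or UTR assigned because no genome of that build was used).
Dnah7a or Dnah7b, chr1:53634105-53634164, minus strand: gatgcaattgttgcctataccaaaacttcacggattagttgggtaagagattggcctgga
Dnah7a, chr1:53468351-53468410, minus strand: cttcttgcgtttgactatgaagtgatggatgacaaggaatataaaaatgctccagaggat
Dnah7b, chr1:46181308-46181367, plus strand: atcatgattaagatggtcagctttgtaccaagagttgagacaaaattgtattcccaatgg
In a fit of every kept probe, the shared probe rose by 3.45 in wild type and the printed probe for Dnah7a alone by 3.54 (adjusted p = 0.00918 and 0.0176). The other probe for Dnah7a alone, which represents the gene, differed by 2.62 and did not pass (adjusted p = 0.081), and neither did the probe for Dnah7b alone, at 1.67 (adjusted p = 0.121). Elsewhere kept probes of a gene agreed in sign. They also agreed closely in size for Dnah12 (5.31, 5.34 and 4.85) and Tekt1 (4.98 and 5.21), and less so for others. The second probe of Dnah6 rose by 2.75 against 6.76, and the second of Rsph1 by 4.59 against 2.86. The second probe of Rsph10b2 differed by 1.35 against 2.99 and did not pass (adjusted p = 0.0694). Another probe of Rsph3a, placed on an unassigned stretch of chromosome 17, differed by 0.46. Dnah8 spanned 4.69 to 6.95 over 3 probes and Dnah17 6.87 and 4.94 over 2, with 2 further Dnah17 probes at background.

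Promoters were searched for motifs because these genes moved together. RefSeq promoters on GRCm38.p6, from 250 bases before to 50 after each gene's start, were at hand for 25 of the 29 genes. Of the 6 motifs searched on both strands, CNGTTG, the core bound by MYB factors, was in 18 of 25 genes (72%) against 38.3% of all 27025 genes with such a window. GTTGCC, the short site of RFX factors, was in 8 (32%) against 14.1%, and in 7 of those 8 a match overlapped a CNGTTG match. The long RFX motif known as the X-box was in 2 genes (8%) against 2.49%, TGTTTAC, read by forkhead factors such as Foxj1, in 2 (8%) against 4.05%, the palindromic cyclic AMP response element in 1 (4%) against 2.03%, and its short form TGACG in 3 (12%) against 23%. Windows around some matches of genes that rose are shown 5′ to 3′ on the gene's strand, with the match in capitals.
Tekt3, MYB core, chr11:63061623-63061644, plus strand: gtccatagCAACCGcctagggc
Dnaic2, MYB core overlapping a short RFX site, chr11:114727387-114727408, plus strand: ttgctaggCAACTGgtaaactc
Dnah6, MYB core, chr6:73221645-73221666, minus strand: ttgctaagCAACGGgaaacatt
Dnah8, MYB core, chr17:30626897-30626918, plus strand: tgaactctCAACGGctgagcca
Dnah17, X-box, chr11:118129357-118129386, minus strand: acgcccttGTCACCAGCGCAACcacagata
Tekt4, X-box, chr17:25471422-25471451, plus strand: ccccacctGTGTCCTGGGAAACaaactcat
The first base of the 4 MYB cores shown lies between −24 and −31 relative to the start, and that of the X-boxes of Dnah17 and Tekt4 at −159 and −160. These are the matches chosen for display, and their positions are no common feature: Dnah8, Tekt3 and Tekt4 hold other MYB cores, Tekt4 holds another X-box at the start itself, and Dnah6, Dnah17, Dnaic2, Tekt3 and Tekt4 hold matches to other motifs that are not shown. A match is a description of the letters and no evidence of binding, and the shares were not tested.

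Most of the genes were also higher at 26 than at 17 dpp in knockout testes. Of 27 genes, 20 were higher at 26 dpp and 0 lower, against 7.58% and 8.19% of all genes, and the median difference was 3.54 (all genes −0.31). By role these were 6 of 7 inner arm chains, 2 of 4 outer arm chains, all 3 intermediate and light chains, 2 of 5 spoke head genes, both stalk genes and all 5 tektins. Rsph6a rose by 6.87 (SE 0.791, adjusted p = 0.0151), but only 1 of its 2 knockout arrays at 17 dpp was well above background. Over the 5 scalings its rise ran from 4.91 to 6.90. Dnah6 rose by 6.13, and Tekt3, at background at 17 dpp, was at least 18.4-fold higher. Rsph1 and Rsph10b2 passed in wild type and not here. Rsph1 differed by 2.74 in knockout (adjusted p = 0.0502), and Rsph10b2 by 0.87 (adjusted p = 0.455). The test of the difference between the genotypes, given further on, called neither. Dnah11 differed by −1.65 (adjusted p = 0.0627).

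This count rests on how the spread was estimated. Fitting the 4 knockout arrays alone left 0 members (22 at an unadjusted p under 0.05), and 0 of all genes passed there. Blocking on the replicate number left 9 members and 954 of all genes. Array weights left 0 members (19 at an unadjusted p under 0.05) and 53 of all genes. In the main fit 4170 of all genes passed, so the loss of calls was not limited to the members. The median difference of the members also moved when single knockout arrays were dropped. Dropping replicate 2 of the 26 dpp knockouts gave 4.28, and dropping replicate 1 gave 2.59. Dropping replicate 1 of the 17 dpp knockouts gave 2.92, and dropping replicate 2 gave 4.01. Dropping any one wild type array left it at 3.54.

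**Figure D2:**
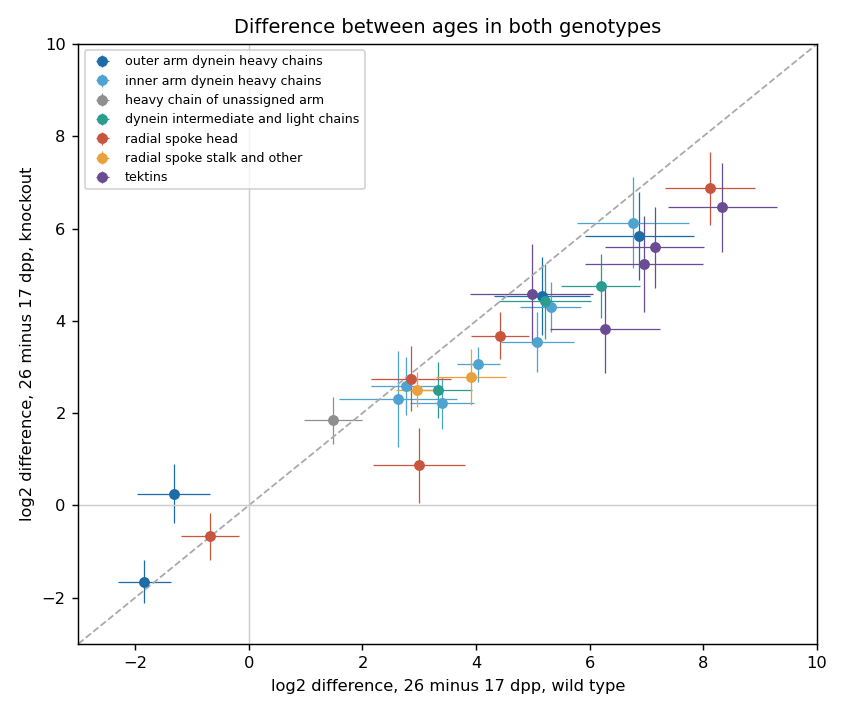
Log2 difference between 26 and 17 dpp in wild type (horizontal) and in knockout (vertical), 1 point per gene, coloured by role, with bars of 1 SE from the limma fit and a dashed line of equality. Tekt3 and Tekt5 are drawn at their measured difference, although both were at background in wild type at 17 dpp. Most points lie below the line, from Rsph6a at 8.12 and 6.87 to Rsph10b2 at 2.99 and 0.87, and Dnah11 and Rsph4a lie below 0 on both axes.

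At 17 dpp no member passed the test between the genotypes. The test called 0 of 27 (0 at an unadjusted p under 0.05, smallest adjusted p = 1), where 0.0907% of all genes did. The median difference, knockout minus wild type, was 0.10, with a range of −0.65 (Dnah9) to 0.84 (Dnah11). Both knockout arrays lay above both wild type arrays in 6 of 27, against 16% of all genes, and below them in 1, against 12.9%. The median was 0.75 without knockout replicate 1 and −0.46 without knockout replicate 2, so its sign rests on which is kept. The error was wide, with an SE of 0.958 for Dnah17 and 1.08 for Tekt1, so differences many times that size could be missed. The epididymis genes Lcn5, at −8.74 (SE 0.948), and Spink8, at −11.68 (SE 1.21), did not pass at this age (limma adjusted p = 0.0796 and 0.0652). The signs of Tekt3, Tekt4, Dnah14 and Dnali1 differ between scalings, with differences between −0.10 and 0.21.

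What stood out at this age was the spread within the knockout. Replicate 2 held the highest of the 4 values in 22 of 27 members and replicate 1 the lowest in 16, which was not counted over all genes. Replicate 2 minus replicate 1 had a median of 1.03 and was over 1 in 14 members. For all genes the median was −0.02, and 1786 of 26449 were over 1. Among the 4992 genes higher at 26 dpp in wild type, the median was 0.20 and 967 were over 1. For the 22 such members these values were 0.98 and 11. Between the 2 wild type arrays, replicate 2 minus replicate 1 had a median of 0.16 and was over 1 in 0 members and 979 of all genes. The gap was 3.44 in Dnah7a, 3.33 in Tekt1, 2.90 in Dnah17, 2.79 in Dnah6 and 2.62 in Dnah8, and −0.03 in Tekt3, which was at background. Pachytene and diplotene markers ran the same way: their median level was −2.36 and 1.07 in knockout replicates 1 and 2, and −0.69 and 0.53 in wild type, and their summed linear level was 37.0 and 114 in knockout against 57.2 and 73.9. Their part in the result was not tested.

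**Figure D3:**
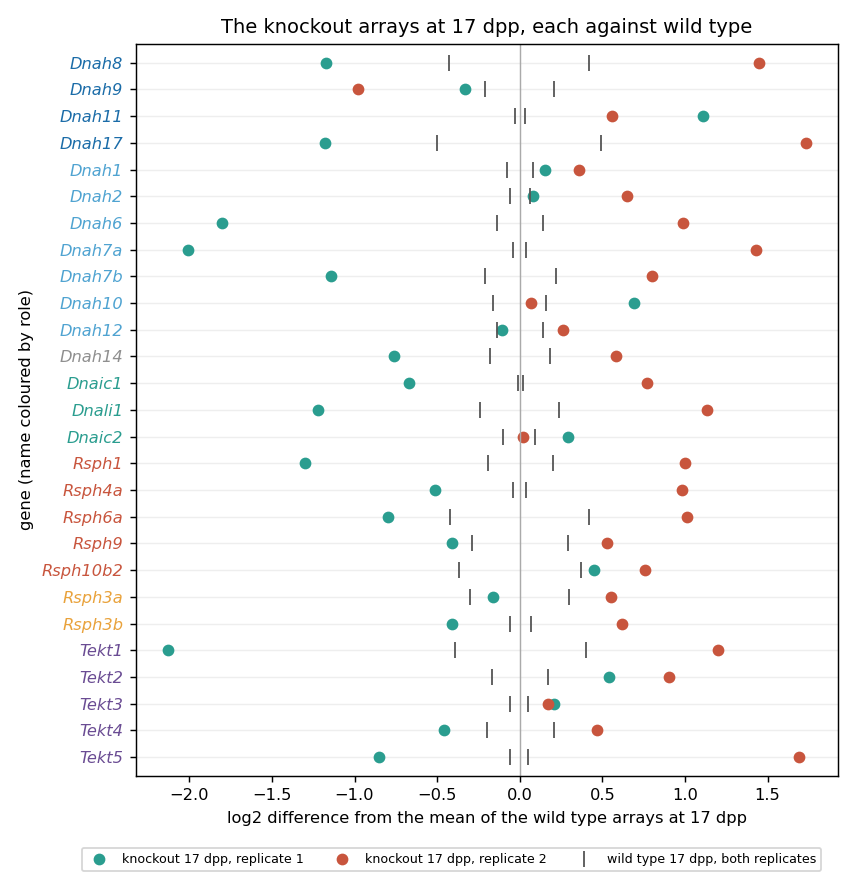
Log2 difference of each knockout array at 17 dpp from the mean of the wild type arrays of that age (points, replicate 1 green and replicate 2 red), with both wild type arrays as grey ticks, for each gene. The red points lie right of the green ones for 22 of 27 genes, and the points lie on both sides of 0.

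Markers of other tissues differed between the samples at 17 dpp. Of 12 epididymis markers tested, 3 were lower in knockout at that age, and the list summed to 26.0 and 91.4 in wild type on the linear scale against 5.93 and 4.41 in knockout. Adipocyte markers summed to 6.58 and 227 against 4.04 and 3.25. The 2 wild type arrays differed by at most 0.98 in any member, and the part of these tissues in the results at 17 dpp was not tested.

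At 26 dpp no member passed either, but nearly all lay lower in knockout. The test called 0 of 27 (0 at an unadjusted p under 0.05, smallest adjusted p = 0.534), where 0.00756% of all genes passed. The median difference was −0.83, with 23 of 27 below 0 and a range of −1.73 to 1.03, and the median of all genes was 0.08. Both knockout arrays lay below both wild type arrays in 18 of 27 members, against 17% of all genes. By role the medians were −1.55 for tektins, −0.92 for inner arm chains, −0.83 for intermediate and light chains, −0.68 for spoke head genes, −0.63 for stalk genes and 0.22 for outer arm chains. The largest differences were −1.73 in Tekt2 (SE 0.966), −1.68 in Tekt3 (SE 0.960), −1.55 in Tekt4 (SE 0.868) and −1.52 in Rsph10b2 (SE 0.811). No member changed sign between the 5 scalings at this age.

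These differences rested on 1 array. Knockout replicate 1 lay within 0.55 of the wild type mean in every member, with a median of −0.12 and 25 of 27 below 0. All genes had a median of −0.03 on that array, with 14700 of 26449 below 0. Knockout replicate 2 had a median of −1.46, lay more than 1 below wild type in 18 members and more than 1 above it in 2, Dnah9 and Dnah11. Of all 26449 genes, 5451 lay more than 1 below and 5934 more than 1 above on replicate 2. The 22 members that were higher at 26 dpp in wild type had a median of −1.78 on replicate 2, with 18 more than 1 below. All 4992 genes that were so had −1.52, with 3249 more than 1 below. Both sets were chosen for high values on the wild type arrays of 26 dpp. Those arrays are also subtracted here, which favours values below 0. Without replicate 2, the differences of Dnah14 and Rsph4a turned from 0.26 and 0.25 to −0.10 and −0.04. Without replicate 2 the median knockout difference of the members was −0.12 and 0 passed (0 at an unadjusted p under 0.05). Without replicate 1, 10 were lower and 2 higher, against 18.3% and 26.9% of all genes; the lone knockout sample is then assumed to vary like the other groups.

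**Figure D4:**
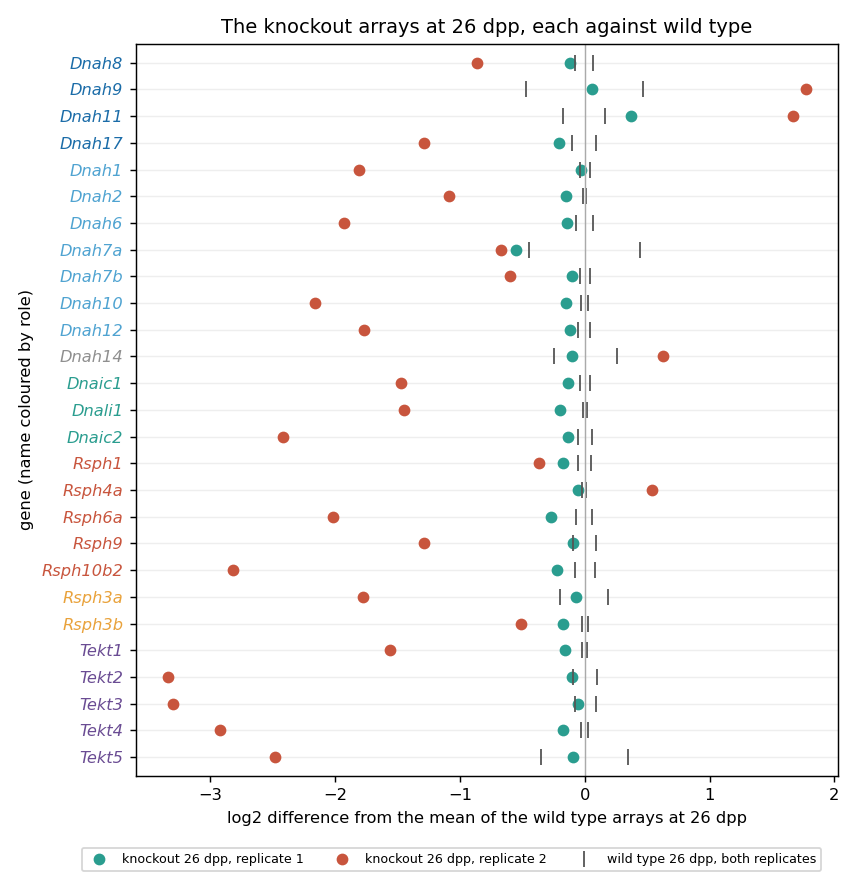
Log2 difference of each knockout array at 26 dpp from the mean of the wild type arrays of that age (points, replicate 1 green and replicate 2 red), with both wild type arrays as grey ticks, for each gene. Replicate 1 stays within 0.55 of 0 throughout, while replicate 2 reaches −3.35 in Tekt2 and 1.77 in Dnah9.

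The members did not shift evenly on that array. Positions ran on the log2 scale from the mean of the 17 dpp arrays (0%) to that of the other 26 dpp arrays (100%). Knockout replicate 2 stood at a median of 71% over the 24 members that rose by more than 1 between these means. Dnah11, which fell between them, was not among these and stood at 27.3%. Rsph10b2 stood at −5.2%, Tekt2 at 43.7%, Dnah1 at 44.7%, Rsph3a at 53.5% and Tekt4 at 59.5%. At the other end were Dnah17 at 81.7%, Dnah8 and Rsph3b at 83.9%, Rsph1 at 89% and Dnah14 at 144%. The second probe of Rsph10b2 read higher in knockout than in wild type at 26 dpp, by 0.53, and stood at 225%, so the low position of that gene holds for 1 of its 2 probes. Likewise the second probe of Dnah14 stood at 88.8%, that of Rsph1 at 42.9% and that of Dnah6 at 134% against 72.7% for the first. Spermatid markers were far lower there: the summed linear level of elongating spermatid genes was 100 on that array and 788 or more on the other 26 dpp arrays, and that of round spermatid genes 81.0 against 394 or more. The summed level of pachytene and diplotene genes was 466 there and 702 to 816 on the others, and spermatogonial genes summed to 122 against 38.3 to 42.1. These sums are linear, unlike the log2 positions above. The median log2 level was −3.83 there and 4.88 to 5.99 on the others for elongating spermatid genes, and −2.67 and 3.11 to 4.30 for round spermatid genes. It was 3.03 and 4.34 to 4.64 for pachytene and diplotene genes, and 1.15 and −0.43 to 0.03 for spermatogonial genes. The part of these cells in the result was not tested.

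Averaged over the ages, 0 of 27 members passed (1 at an unadjusted p under 0.05, Dnah11, whose difference was 0.93), where 0% of all genes did. The difference of the knockout effect between the ages passed in 0 of 27 as well (0 at an unadjusted p under 0.05), again against 0% of all genes. Its median was −0.84, but −0.27 without knockout replicate 2 at 26 dpp and −1.51 without replicate 1 at 26 dpp. Without knockout replicate 2 at 17 dpp it was −0.12, and without replicate 1 at 17 dpp −1.48. Without knockout replicate 1 at 26 dpp these counts were 9 and 11, against 29.5% and 32.5% of all genes, and without replicate 2 they were 0 and 0.

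Most genes that work with these proteins were also higher at 26 dpp in wild type. The lists were drawn up by function, with earlier results of these data known, and hold no gene of the naming rule. Of genes for arm assembly and docking, 17 of 22 tested were higher and 0 lower, led by Armc4, which docks the outer arm, at 7.32 (SE 1.02, adjusted p = 0.00852). Other axonemal dynein subunits gave 7 of 9, the nexin-dynein regulatory complex 9 of 11, the central apparatus 13 of 14, other radial spoke genes 16 of 19 and proteins inside the doublet wall 19 of 22, with 0 lower in each. Cytoplasmic dynein and dynactin, which carry cargo in all cells, behaved otherwise: 7 of 20 were higher, 3 were lower and the median was 0.39. Dynlrb1, a light chain of cytoplasmic dynein, was lower at 26 dpp in wild type, with 4.25 and 4.16 at 17 dpp and 2.57 and 2.39 at 26 dpp, while its relative Dynlrb2 was higher, with 0.05 and 1.08 against 5.48 and 5.66.

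**Figure D5:**
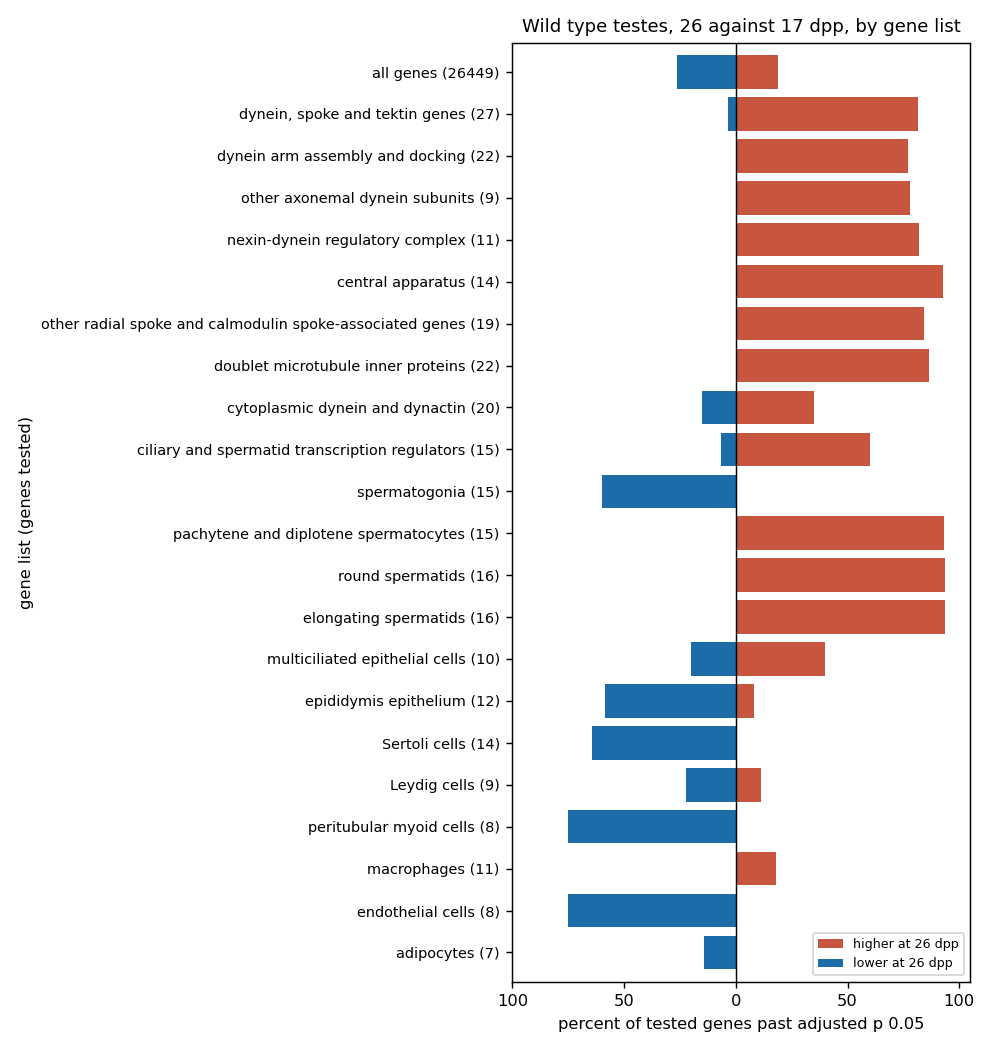
Percent of the tested genes of each list (number tested in brackets) that were higher (red, to the right) or lower (blue, to the left) at 26 than at 17 dpp in wild type, at a limma adjusted p under 0.05. The dynein, spoke and tektin genes (22 higher and 1 lower of 27) stand beside lists such as the central apparatus (13 higher and 0 lower of 14), and the cytoplasmic dynein list has 7 higher and 3 lower of 20.

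Regulators of ciliary and spermatid genes were measured too, and 9 of 15 were higher and 1 lower in wild type. Foxj1, a forkhead factor of motile ciliogenesis, read −3.25, −2.87, −2.84 and −2.80 at 17 dpp and 2.36, 2.39, 2.46 and −2.45 at 26 dpp. On knockout replicate 2 at 26 dpp it thus lay at the level of the younger age, while the members lay mostly nearer the older one. Crem, an activator of spermatid genes, read −0.37, −0.04, −1.19 and 0.27 at 17 dpp and 4.34, 4.63, 4.36 and 2.57 at 26 dpp. Fhl5, a coactivator of Crem, read 4.21, 5.52, 4.78 and −3.96 at 26 dpp, and between −3.45 and −3.80 on every 17 dpp array. In knockout against wild type 0 genes of these 8 lists passed at either age.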

How the data were processed

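Agilent Feature Extraction 11.5.1.1 read the arrays, per the file headers. The deposited scanner files hold the processed signal, an intensity corrected for background, per the file headers. The authors' deposited value table holds log2 values of unstated scale. Set against the scanner values, its columns correlated at 0.999906 to 0.999946 with log2 signal relative to the 75th percentile and had medians of −3.59 to −3.84, which fits a log2 scale, but its values lay 0.128 to 0.217 higher in the median, so its centring stays unknown; it served as an alternative. Outlier spots were dropped and log2 spots averaged. Kept probes passed the scanner's background test on each replicate of some group and had values on all 8 arrays. The kept probe with the highest mean stands for a gene. RefSeq (GRCm38.p6) named 27530 of 55681 probes by accession, 3549 by symbol and 404 by synonym, and 24198 kept the name in the file.

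limma 3.58.1 fitted 1 mean per group over all 8 arrays, two-sided, with Benjamini-Hochberg adjustment over 26449 genes (4 residual degrees of freedom, prior 2.05). On simulated data for wild type, 26 against 17 dpp (26449 genes), it called 34% of changes of 2 on the log2 scale, 80% of 4, 92% of 6 and 98% of 8. Only 50 genes of each size were changed there, and 11 unchanged genes were also called. In the data 4992 genes were higher and 6928 lower, so these shares do not give the sensitivity of the real test. The number of arrays limits the precision. Members and lists were chosen with earlier results of these data known. Every member is named; values on each array are given for the 12 called members with the largest difference in wild type and those that fell or did not pass. Python 3.11.15 and R 4.3.3 were used.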

Additional observations from a re-analysis of the deposited data

Results flagged for a closer look

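In 3 of 27 members both knockout arrays lay above both wild type arrays at 17 dpp and below them at 26 dpp, where 2.97% of all genes did so. In Tekt2 the knockout difference was 0.72 at 17 dpp and −1.73 at 26 dpp, a change of −2.44 (SE 1.37). In Rsph10b2 it was 0.60 and −1.52, a change of −2.12 (SE 1.15). In Dnah2 it was 0.37 and −0.61, a change of −0.98 (SE 0.535). The limma test of that change did not pass in any of the 3 (adjusted p = 0.781 in each, unadjusted 0.124, 0.113 and 0.116), and 0% of all genes passed it. Knockout replicate 1 at 26 dpp differed from the wild type mean by −0.11 in Tekt2, −0.22 in Rsph10b2 and −0.14 in Dnah2. Knockout replicate 2 differed by −3.35, −2.82 and −1.08, so the differences at 26 dpp rested mostly on that array. The second Rsph10b2 probe read higher in knockout than in wild type at 26 dpp.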

How the results depend on the processing

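Counts here are of called members. In wild type, 26 against 17 dpp, the count was 23 and stayed between 21 and 27 under the other settings run, except 36 of 43 probes with every kept probe tested. Leaving out 1 array gave 0 to 25. In knockout it was 20, and 15 to 21 under the other settings, except 29 of 43 probes with every kept probe tested, 0 with the 4 knockout arrays alone, 0 with array weights and 9 with the replicate number as a block; leaving out 1 array gave 0 to 23. The labels do not state that the replicate numbers pair the samples. Replicate differences correlated between groups at −0.40 to 0.105, which cannot exclude a pairing. The replicate block changed no other count: 23 in wild type and 0 in every comparison of knockout with wild type. A block with the numbers of the knockout arrays at 26 dpp exchanged, added after seeing the data, gave 21 in knockout and 0 against wild type at 26 dpp. Knockout against wild type gave 0 at 17 dpp in every setting, 0 to 12 at 26 dpp, 0 to 9 averaged and 0 to 11 for the change between ages when 1 array was left out, and 0 in each under all other settings. Between ages, no member changed sign in wild type, and 3 did in knockout: over the fits that leave out 1 array, Rsph10b2 ranged from −0.44 (without replicate 1 at 26 dpp) to 2.17, Dnah9 from −0.61 (without replicate 2 at 26 dpp) through −0.08 (without replicate 2 at 17 dpp) to 1.11, and Rsph4a from −1.42 to 0.07 (without replicate 2 at 17 dpp). Of the small knockout differences, 2 of 27 at 26 dpp changed sign without knockout replicate 2 of that age, and 5 to 11 at 17 dpp without 1 of the 4 arrays of that age. The cause of these changes was not tested. Genes dim at 17 dpp, such as Tekt3 and Tekt5, have a bound in place of a fold.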
